A study of Homo sapiens with 4 samples.

Results

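Untreated (UT) U-2 OS cells that carried a high level of CDKN1A mRNA without any irradiation were compared with untreated cells of the same libraries in which no CDKN1A was counted. CDKN1A encodes p21, the cyclin-dependent kinase inhibitor through which p53 halts the cell cycle. The members were selected on CDKN1A itself: a cell was called high when CDKN1A made up at least 5 of every 10000 gene counts, low when it had no CDKN1A count, and between otherwise. By this rule 125 cells were high, 66 of the 358 cells of UT experiment 1 and 59 of the 367 cells of UT experiment 2, among 725 UT cells and 1220 cells in all. The low class held 76 and 73 cells in experiments 1 and 2, and 216 and 235 cells lay between.

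The study followed DNA damage through cell generations, and this data set asked how single cells respond to ionizing radiation (IR). U-2 OS is a human cell line from an osteosarcoma that kept wild-type p53, and each of 2 experiments gave 1 IR library (4 Gy) and 1 UT library. The labels give 48 h in the series design and 24 h in the treatment protocol as the time between irradiation and sorting, and the study's methods give 48 h. Live cells were sorted singly into wells of plates and sequenced by SORT-seq, in which primers carrying the barcode of the well and a random molecular tag (UMI) prime on the poly(A) tails of RNAs. The UT cultures received no drug and no radiation, and no cell was labelled as damaged: the high class is a class by mRNA level within 1 cell line, with no history of the single cells attached to it.

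p53 is kept low in unstressed cells by MDM2, a ubiquitin ligase that is itself encoded by a p53 target gene, a loop that can give pulses of p53. Once active, p53 binds DNA at paired copies of a short element and raises genes of arrest, repair, metabolism and death. p21 keeps the retinoblastoma family unphosphorylated, and the DREAM complex, in which a retinoblastoma family protein sits with E2F4 and the MuvB proteins, then represses genes of the late cell cycle through an element known as the cell cycle genes homology region (CHR).

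The promoters of genes that separated the classes are shown first because each gene group is known for a short sequence element. Windows of 300 bases (250 before and 50 after the start of transcription) came from RefSeq on GRCh38.p14, the same primary assembly as the GRCh38.p13 of the deposited data, and the letters TTTGAA of the CHR were searched on both strands. Of the 54 genes of the G2 and M phase list 46 had a window, and 33 of these (71.7%) held the CHR letters, against 18.2% of all 27305 genes in the table and 6 of 47 p53 target genes (12.8%). The stretches from 80 bases before to 50 bases after the start are printed for 4 mitotic genes that were lower in high cells, with the CHR in capitals: PLK1 (chr16:23678809-23678938, plus strand), CCNB2 (chr15:59105066-59105195, plus strand), PIF1 (chr15:64825598-64825727, minus strand) and CKAP2L (chr2:112764560-112764689, minus strand). The element began 29 bases before the start in PLK1 and in CCNB2, 20 before in PIF1 and 17 before in CKAP2L.
PLK1: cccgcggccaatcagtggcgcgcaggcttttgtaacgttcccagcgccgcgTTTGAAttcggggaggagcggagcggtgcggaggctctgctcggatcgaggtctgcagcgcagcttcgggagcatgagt
CCNB2: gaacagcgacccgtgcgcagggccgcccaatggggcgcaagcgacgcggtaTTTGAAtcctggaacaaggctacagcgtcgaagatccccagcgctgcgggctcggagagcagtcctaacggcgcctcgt
PIF1: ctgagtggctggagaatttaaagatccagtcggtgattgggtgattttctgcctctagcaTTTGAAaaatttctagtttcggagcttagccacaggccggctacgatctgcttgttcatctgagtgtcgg
CKAP2L: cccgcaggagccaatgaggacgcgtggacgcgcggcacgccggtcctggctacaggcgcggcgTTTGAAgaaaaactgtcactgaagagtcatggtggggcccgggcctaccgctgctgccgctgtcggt
The CHR letters were in the windows of 5 of the 8 matched genes among the 10 mitotic genes named below and in none of the windows of NEK2, KIF20A and CCNB1.

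A single copy of the p53 element of 10 bases, searched by its consensus on either strand, was in the windows of 9 of 47 p53 target genes (19.1%), against 8.06% of all genes, 6 of 31 S phase genes (19.4%) and 5 of 46 G2 and M phase genes (10.9%), so the share was not particular to p53 targets. It is shown in capitals for 2 p53 targets that were higher in high cells, at the start of SESN1 that lies farthest inside the gene among its 3 windows (chr6:109008939-109009068, minus strand) and at RPS27L (chr15:63157428-63157557, minus strand), where it began 49 and 59 bases before the start.
SESN1: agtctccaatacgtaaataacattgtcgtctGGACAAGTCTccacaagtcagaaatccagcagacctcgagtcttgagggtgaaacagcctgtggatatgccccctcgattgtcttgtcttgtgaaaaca
RPS27L: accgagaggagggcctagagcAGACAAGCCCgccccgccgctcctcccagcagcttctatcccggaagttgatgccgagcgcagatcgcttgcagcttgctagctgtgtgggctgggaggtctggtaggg
No such copy was found in the windows of MDM2 and BTG2, which says only that these letters are not in those windows. A match of letters is a description and no binding was measured in these libraries.

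High cells were a minority of the untreated cultures and their CDKN1A levels ran on without a gap at the threshold. They made up 18.4% of experiment 1 (95% exact binomial interval 14.6% to 22.8%) and 16.1% of experiment 2 (12.5% to 20.2%), and low cells made up 21.2% and 19.9%. The median CDKN1A level of high cells was 9.29 per 10000 in experiment 1 (range 5.08 to 112) and 7.99 in experiment 2 (range 5.06 to 21.6). Just outside the threshold lay cells with 4.92 and 4.96 per 10000, and within 1 per 10000 of it there were 10 cells above and 20 below in experiment 1, and 10 above and 22 below in experiment 2. In the sums over cells CDKN1A reached 1116 and 953 CPM, the counts scaled to a common total for every sum, in the high class, 186 and 179 in the between class and 0 in the low class, by construction. These values chose the classes, so CDKN1A was left out of every test.

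The classes also differed in depth. High cells had a median of 14938 and 17999 gene counts in experiments 1 and 2, against 12952 and 14724 in low cells, and mitochondrially encoded genes took a median of 4.36% and 3.91% of the counts of high cells, against 6.25% and 5.52% in low cells. A cell with fewer counts is more likely to show no CDKN1A count, and the part of depth in the class of a single cell was not tested. A comparison of cells paired on total counts is given beside the comparison of all cells. The 2 libraries shared 350 barcodes, because barcodes mark wells of a plate, and 12 of these were high in both. VIM and COL1A1, mesenchymal genes of an osteosarcoma line, averaged 2120 ± 416 and 2013 ± 560 CPM in high cells and 1978 ± 369 and 1959 ± 352 CPM in low cells (SD, n = 2 libraries each). CPM are shares of a class total, so a gene's level and the amount of other RNA in a cell cannot be told apart on this scale. A UMI of the leukocyte gene PTPRC was in 0 of 60 and 0 of 58 high cells thinned to 8000 UMIs (upper exact limits 5.96% and 6.16%), and unthinned in 0% and 1.69% of high cells and 0% and 6.85% of low cells. EPCAM, another marker of other cell types, was not absent. Its UMIs were in 8.33% and 12.1% of thinned high cells, and 17.5% and 8.82% of thinned low cells. Unthinned, the EPCAM shares were 19.7% and 27.1% of high cells and 21.1% and 13.7% of low cells. Of 4 such markers EPCAM was the 1 tested between the classes (log2 0.14, not called). Library totals were 5867961 and 6810079 UT counts.

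Across all genes, 633 of 10945 tested (5.78%) were higher in high cells and 572 (5.23%) were lower at an adjusted p under 0.05. Counts were summed over the cells of each class and library and fitted with edgeR's quasi-likelihood test with the library as a block, because both classes of a library came from the same plate. Each value below is the CPM of a class sum, given for experiment 1 and then experiment 2, and each fold change is on the log2 scale with its standard error. The labels number the 2 experiments but do not describe their cultures. The p-values cover only how class differences varied between the 2 libraries, with variance also shared across genes. Intervals on shares cover counting error only. Without the block the counts were 48 higher and 66 lower, and with DESeq2 they were 148 and 203.

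Genes that p53 activates rose together with CDKN1A. Of 59 p53 target genes other than CDKN1A 52 were tested, 41 were higher in high cells (78.8% of those tested, against 5.78% of all genes), none was lower, and 11 were not called. Their median log2 fold change was 1.00, against 0.00 over all genes, and it was 1.15 in experiment 1 and 0.93 in experiment 2. The 11 that were not called, among them BAX, APAF1 and FBXW7, had log2 fold changes from 0.14 to 1.07.

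MDM2 (chr12:68808177-68845544), the ligase that feeds back on p53, stood at 180 and 272 CPM in high cells, against 32.1 and 62.9 CPM in low cells. It was 4.60-fold higher (log2 2.20 ± 0.16, adjusted p = 3.96e-15). GADD45A (chr1:67685201-67688334), a stress sensor that binds cell cycle and repair proteins, had 156 and 154 CPM in high cells, against 50.5 and 42.2 CPM in low cells. In both libraries every high class sum of these 2 genes lay above every low class sum, and GADD45A was higher by 1.70 ± 0.17 (adjusted p = 1.57e-11).

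BTG2, an antiproliferative gene, had 75.4 and 96.1 CPM in high cells, against 7.77 and 11.7 CPM in low cells, and was 8.51-fold higher (log2 3.09 ± 0.27, adjusted p = 8.45e-13). RRM2B, the p53-induced subunit of ribonucleotide reductase, had 140 and 230 CPM in high cells, against 31.1 and 45.8 CPM in low cells (log2 2.22 ± 0.17). ZMAT3, an RNA-binding p53 effector, had 210 and 200 CPM in high cells, against 57.3 and 62.9 CPM in low cells (log2 1.73 ± 0.15). None of these ranges overlapped between the classes. Here and for other named genes this separation of class sums is a description, since the genes were picked for their change. Among all tested genes 31.8% were higher in high cells in both libraries, and the share without overlap was not computed.

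The sestrins, which restrain mTORC1 under stress, were higher as a pair. SESN2 had 70.8 and 98.7 CPM in high cells, against 20.4 and 12.6 CPM in low cells (log2 2.33 ± 0.25), and SESN1 had 38.2 and 31.1 CPM in high cells, against 5.83 and 8.08 CPM in low cells (log2 2.25 ± 0.38). TP53INP1, an autophagy and death regulator induced by p53, had 64.3 and 62.3 CPM in high cells, against 6.80 and 9.88 CPM in low cells (log2 2.86 ± 0.31). The call of SESN1 was lost when every cell was thinned to 8000 UMIs and the classes were drawn anew from the thinned counts (log2 0.56, adjusted p = 0.522).

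GDF15, the stress cytokine, was found in few cells. It had 23.3 and 60.5 CPM in high cells, against 0.971 and 12.6 CPM in low cells (log2 2.55 ± 0.44, adjusted p = 1.03e-04). In experiment 2, 13 of the 14 GDF15 counts of the low class came from 1 cell, which also held 13 MDM2 counts and the highest p53 target sum of its class. When that cell and the high cell with the most CDKN1A were left out, the log2 fold change of GDF15 was 5.35, fitted to 2 remaining counts in the low class and no bound.

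Death genes were called in part, and PMAIP1, BBC3 and FAS were chosen after their values were seen. PMAIP1 and BBC3, which encode the BH3-only proteins NOXA and PUMA, were higher by 1.50 ± 0.18 and 1.66 ± 0.33, and the death receptor gene FAS had 30.7 and 58.7 CPM in high cells, against 12.6 and 10.8 CPM in low cells (log2 1.89 ± 0.31). BCL2L1, which encodes the guardian BCL-XL, was also higher (log2 0.83 ± 0.12), as was BIRC3, an inhibitor of apoptosis (log2 1.89 ± 0.35), whereas CYCS, encoding cytochrome c, was lower (log2 -0.43 ± 0.10). The calls of FAS and BIRC3 were lost in thinned cells (adjusted p = 0.115 and 0.0977), and 41.9% of the BIRC3 counts of high cells in experiment 1 came from 1 cell. Of the 20 apoptosis effectors tested, BCL2L1, BIRC3 and CYCS were the ones called, and the list's median was 0.10. The shares, 2 higher (10%, against 5.78% of all genes) and 1 lower (5%, against 5.23%), were near those of all genes.

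Of 15 genes tested in a list of CDK inhibitors and regulators of p53 that leaves out CDKN1A and MDM2, none was higher. The 1 lower gene (6.67%, against 5.23% of all genes) was CHEK2, the checkpoint kinase gene, at 7.45 and 10.7 CPM in high cells and 12.6 and 26.9 CPM in low cells (log2 -1.17 ± 0.40, adjusted p = 0.0493). The other inhibitor genes named by the rule, CDKN1B (p27) and CDKN2C (p18), had log2 fold changes of -0.49 ± 0.22 and -0.46 ± 0.19, neither called. The call of CHEK2 was lost in thinned cells (adjusted p = 0.827) and without 2 outlying cells (adjusted p = 0.0546).

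**Figure D1:**
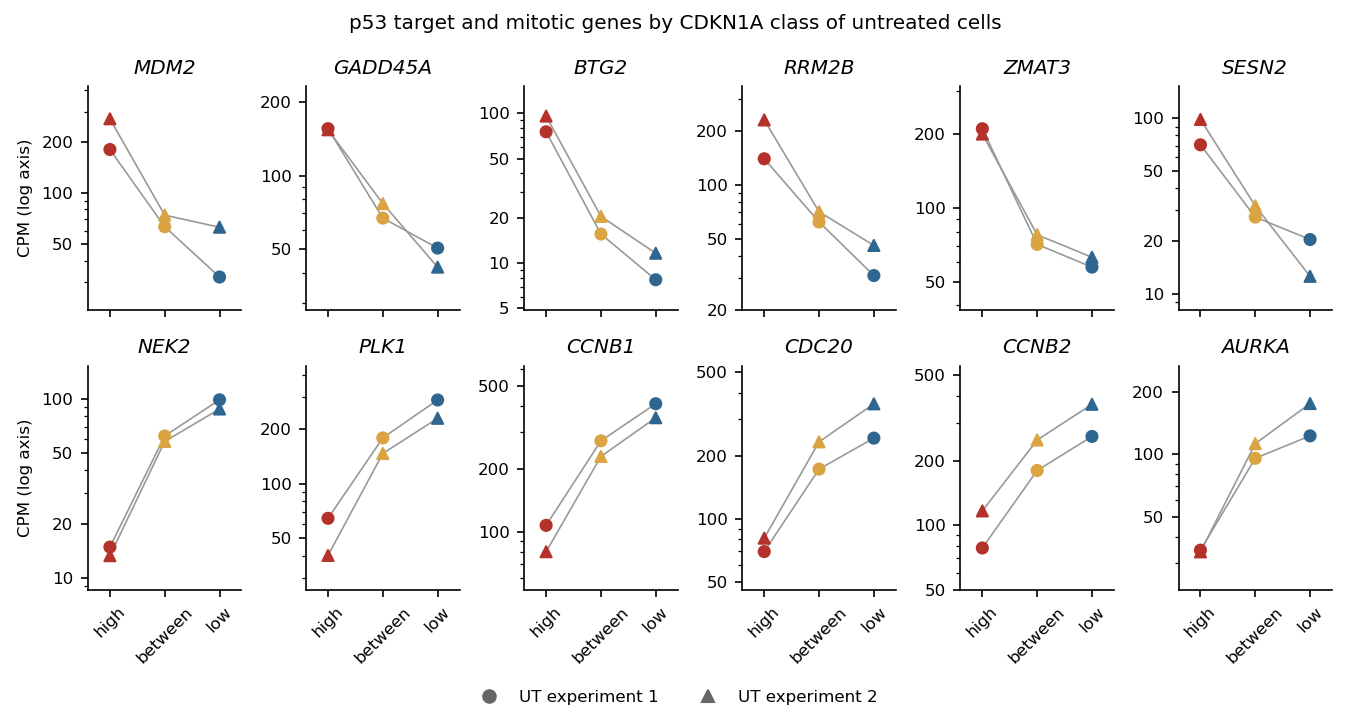
CPM of 6 p53 target genes (top) and 6 mitotic genes (bottom) on log axes, in the sums over high, between and low cells of each UT library, with circles for experiment 1 and triangles for experiment 2. The p53 targets stand highest in the high class (MDM2 at 180 and 272 CPM), the mitotic genes stand lowest there (NEK2 at 14.9 and 13.3 CPM), and the between class lies in the middle in every panel.

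The 10 largest rises among well-measured genes went beyond the p53 list. Besides BTG2, TP53INP1, GDF15, SESN2 and SESN1 they were ACTA2, ATF3, INKA2, RGS4 and IL13RA2. Low cells of experiments 1 and 2 held few counts of these last genes. The sums were 5 and 4 for ACTA2, 2 and 6 for ATF3, and 10 and 0 for INKA2. They were 8 and 4 for RGS4 and 11 and 3 for IL13RA2. DESeq2 gave no adjusted p for any of these. ACTA2, smooth muscle actin, had 44.7 and 42.7 CPM in high cells, against 4.86 and 3.59 CPM in low cells (log2 3.32 ± 0.40, adjusted p = 7.79e-09). ACTA2 and FAS overlap by 37527 bases on opposite strands, and whether reads were assigned by strand is not given in the sources used here, so the reads of these 2 genes may not be separate.

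ATF3, a stress-induced transcription factor, had 40.0 and 32.9 CPM in high cells, against 1.94 and 5.39 CPM in low cells (log2 3.23 ± 0.44). In each library 1 cell held much of the ATF3 counts of high cells, 32.6% in experiment 1 and 32.4% in experiment 2. INKA2, an inhibitor of the kinase PAK4, had 42.8 and 41.8 CPM in high cells, against 9.71 and 0 CPM in low cells, so its fitted log2 fold change of 3.13 ± 0.47 depends on how a 0 is treated. RGS4, a brake on G protein signalling, was higher by 2.61 ± 0.39, and IL13RA2, a decoy receptor for interleukin 13, by 2.32 ± 0.43. The call of RGS4 was lost in thinned cells (adjusted p = 0.176). The IL13RA2 class sums of high cells, 26.1 and 41.8 CPM, lay above those of low cells, 10.7 and 2.69 CPM, as did those of the other genes of this group.

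Genes of G2 and mitosis fell in high cells almost without exception. Of the 54 tested 52 were lower (96.3%, against 5.23% of all genes), none was higher, and the median log2 fold change was -1.17 (-1.12 and -1.19 in the 2 experiments). NEK2, a centrosome kinase gene, had 14.9 and 13.3 CPM in high cells, against 99.1 and 88.0 CPM in low cells (log2 -2.77 ± 0.24, adjusted p = 3.06e-13). PLK1, the polo kinase of mitotic entry, had 64.3 and 40.0 CPM in high cells, against 290 and 230 CPM in low cells (log2 -2.37 ± 0.14). The classes did not overlap for either gene.

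The B-type cyclins, which drive mitotic entry with CDK1, fell as well. CCNB1 had 107 and 80.0 CPM in high cells, against 410 and 351 CPM in low cells (log2 -2.07 ± 0.12), and CCNB2 had 78.2 and 117 CPM in high cells, against 259 and 366 CPM in low cells (log2 -1.73 ± 0.12). CDC20, the activator of the anaphase-promoting complex, had 69.8 and 80.9 CPM in high cells, against 243 and 354 CPM in low cells (log2 -2.02 ± 0.13). The remaining genes of the 10 largest falls were KIF20A, a kinesin of cytokinesis (-2.69 ± 0.25), the helicase gene PIF1 (-2.64 ± 0.38), PIMREG (-2.17 ± 0.28), the spindle kinase gene AURKA (-2.17 ± 0.18), CKAP2L (-1.79 ± 0.22) and DEPDC1 (-1.74 ± 0.22).

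Proliferation markers were lower but not absent. After thinning to 8000 UMIs a UMI of MKI67 was found in 48.3% of 60 high cells and 58.6% of 58 high cells, against 87.3% of 63 and 79.4% of 68 low cells, and a UMI of CCNB1 in 36.7% and 32.8% of high cells, against 84.1% and 75.0% of low cells. Unthinned, the shares for MKI67 were 59.1% and 69.5% of high cells and 86.8% and 82.2% of low cells. TOP2A, the topoisomerase of chromosome condensation, fell by 1.25 ± 0.10 on the log2 scale and MKI67 by 1.06 ± 0.10. A background share from a cell type that lacks these genes could not be given, since the libraries hold 1 cell line.

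Single cells showed where the class difference lay. Both the S phase sum and the G2 and M phase sum were under the median of their library in 68.2% of high cells of experiment 1 (45 of 66, interval 55.6% to 79.1%) and 67.8% of experiment 2 (40 of 59, 54.4% to 79.4%), against 25.0% (19 of 76, 15.8% to 36.3%) and 30.1% (22 of 73, 19.9% to 42.0%) of low cells. Only 2 of 66 and 1 of 59 high cells were at or above the upper quartile of their library for G2 and M phase genes, against 25 of 76 and 25 of 73 low cells. A remainder of high cells, 21 and 19, had cycle gene sums at or above a median. In those cells the p53 target sum was 41.1 and 43.9 per 10000 (medians), against 53.3 and 57.7 in high cells under both medians.

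**Figure D2:**
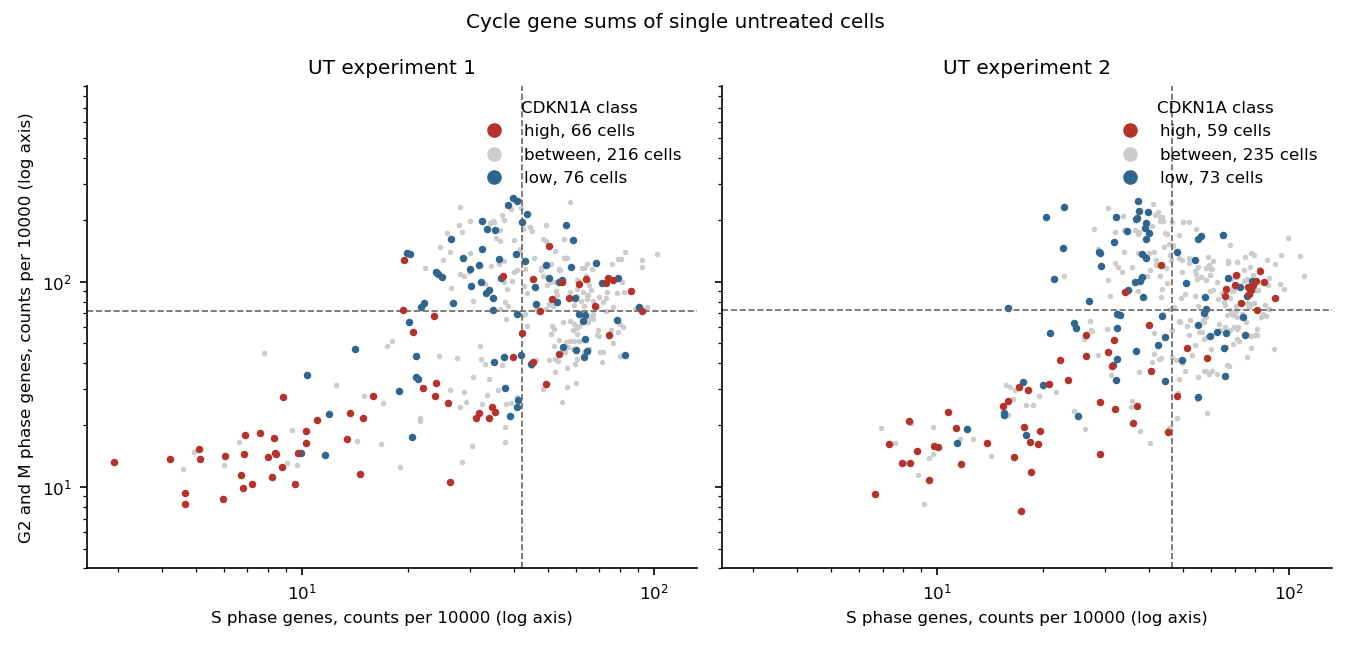
Each point is an untreated cell, with the summed counts of S phase genes (horizontal) and G2 and M phase genes (vertical) per 10000 gene counts on log axes, coloured by CDKN1A class, and dashed lines mark the library medians. High cells gather at the lower left (45 of 66 and 40 of 59 lie under both medians), a smaller group of them lies at high S phase sums, and 3 in all lie at or above the upper quartile of G2 and M phase sums.

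Fewer S phase and G1 genes were called. Of 42 S phase genes 10 were lower (23.8%, against 5.23% of all genes) and none was higher. Their median was -0.38, but -0.54 in experiment 1 and -0.20 in experiment 2. NASP, a histone chaperone gene, had 230 and 283 CPM in high cells, against 385 and 384 CPM in low cells (log2 -0.63 ± 0.10), and USP1, GMNN and UHRF1, genes of a deubiquitinase, the licensing inhibitor geminin and a maintenance factor of DNA methylation, fell by 0.69 ± 0.14, 0.88 ± 0.22 and 0.81 ± 0.20. The calls of GMNN and UHRF1 were lost with DESeq2 (adjusted p = 0.113 and 0.0992), and that of GMNN also in thinned cells (log2 -0.64, adjusted p = 0.153).

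The D-type cyclin genes of G1 went the other way. CCND2 had 452 and 377 CPM in high cells, against 254 and 189 CPM in low cells (log2 0.86 ± 0.10), and CCND1 had 338 and 225 CPM in high cells, against 210 and 136 CPM in low cells (log2 0.66 ± 0.12). These were the 2 genes higher among 24 of the G1 cyclin, E2F and retinoblastoma list (8.33%, against 5.78% of all genes). Lower were 5 (20.8%, against 5.23%), among them FOXM1, the transcription factor of mitotic genes (-0.72 ± 0.13), and E2F4, of the DREAM complex (-0.76 ± 0.17, not called with DESeq2). In thinned cells the calls of CCND1 and E2F4 were lost (adjusted p = 0.0808 and 0.146).

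DNA damage response and repair genes were lower where they changed. Of 43 tested 9 were lower (20.9%, against 5.23% of all genes) and none was higher, with a median of -0.31. H2AFX, encoding the histone H2AX that is phosphorylated at breaks, had 33.5 and 90.7 CPM in high cells, against 104 and 192 CPM in low cells (log2 -1.30 ± 0.16). The class sums of H2AFX did not overlap, although they differed between the libraries within each class. FANCD2, BRCA2 and RIF1, genes of crosslink repair, homologous recombination and break protection, fell by 0.86 ± 0.21, 0.62 ± 0.18 and 0.46 ± 0.13. None of these 3 was called with DESeq2 or in thinned cells (log2 -0.47, -0.59 and -0.42, adjusted p = 0.282, 0.0615 and 0.0685). Among cells paired on total counts and cycle genes 0 of 38 genes of the list were called (median -0.12). H2AFX and FANCD2 then had log2 fold changes of -0.15 and 0.01, neither called.

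**Figure D3:**
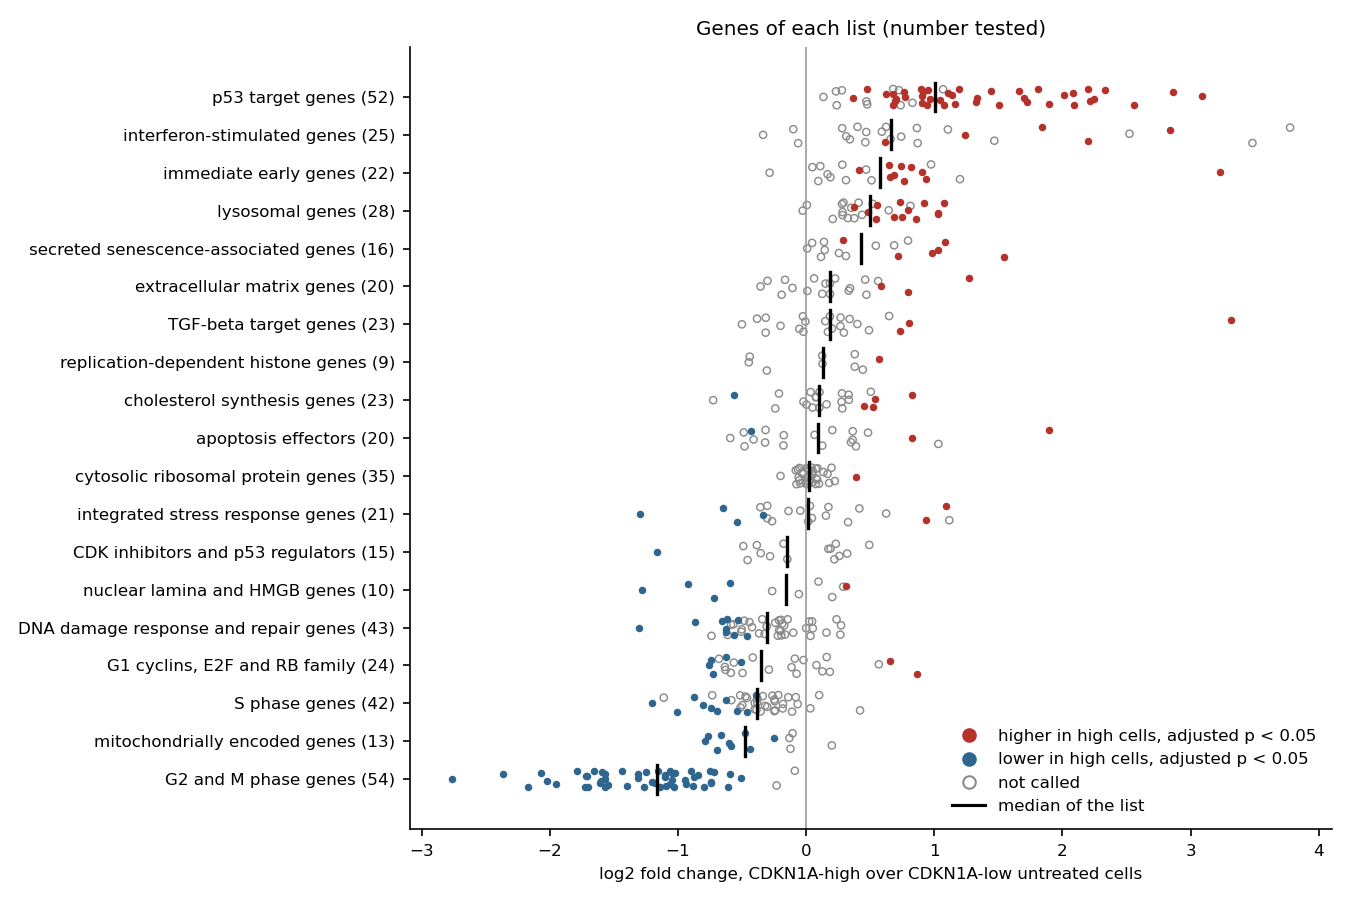
Log2 fold change of every tested gene of 19 lists, CDKN1A-high over CDKN1A-low untreated cells, with called genes in red (higher) or blue (lower), uncalled genes as open circles and list medians as bars. p53 targets lie to the right (41 of 52 called higher) and G2 and M phase genes to the left (52 of 54 called lower), with the medians of the other lists between them.

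Immediate early genes were higher in part. Of 22 tested 10 were higher (45.5%, against 5.78% of all genes) and none was lower (median 0.58). IER3, a survival gene, had 389 and 318 CPM in high cells, against 217 and 188 CPM in low cells (log2 0.76 ± 0.11), JUND was higher by 0.74 ± 0.11, KLF6 by 0.82 ± 0.14 and EGR1 by 0.93 ± 0.17. Genes of the integrated stress response split, with 2 of 21 higher (9.52%) and 4 lower (19.0%, against 5.23% of all genes), and a median of 0.02. PPP1R15A, encoding the phosphatase subunit GADD34, and DDIT4, an mTORC1 inhibitor, were higher by 0.94 ± 0.22 and 1.09 ± 0.28 (neither called with DESeq2), whereas SLC7A11, the cystine transporter that p53 is known to repress, had 29.8 and 49.8 CPM in high cells, against 85.5 and 105 CPM in low cells (log2 -1.30 ± 0.22), and PHGDH, of serine synthesis, fell by 0.65 ± 0.13 (not called in thinned cells, adjusted p = 0.322).

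Lysosomal genes were higher in part. Of 28 tested 13 were higher (46.4%, against 5.78% of all genes), none was lower and 15 were not called, with a median of 0.50 (0.51 and 0.43). Among cells paired on total counts and cycle genes 0 of 25 were called (median 0.22). The values that follow are for all cells. SQSTM1, the autophagy receptor p62, had 325 and 327 CPM in high cells, against 153 and 157 CPM in low cells (log2 1.03 ± 0.11, adjusted p = 4.54e-10). GRN, encoding progranulin, had 566 and 404 CPM in high cells, against 207 and 235 CPM in low cells (log2 1.08 ± 0.12), and TPP1, ASAH1 and CTSD, genes of a lysosomal peptidase, acid ceramidase and cathepsin D, were higher by 0.92 ± 0.14, 0.85 ± 0.13 and 1.03 ± 0.19.

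Secreted factors of the senescence list were measured in part, 16 of 33, and 6 were higher (37.5%, against 5.78% of all genes, median 0.43). IGFBP7, a secreted binding protein of growth factors, had 160 and 202 CPM in high cells, against 64.1 and 56.6 CPM in low cells (log2 1.55 ± 0.15, adjusted p = 3.00e-11). INHBA (activin A), the chemokine gene CCL2 and FGF2 were higher by 0.98 ± 0.16, 0.72 ± 0.17 and 1.03 ± 0.26, and CCL2 and FGF2 were not called with DESeq2 (adjusted p = 0.118 and 0.143). In thinned cells INHBA, CCL2 and FGF2 were not called, at log2 fold changes of 1.04, 0.44 and 0.75 (adjusted p = 0.258, 0.232 and 0.165). Of the FGF2 counts of high cells in experiment 2, 45.2% came from 1 cell. Of 10 nuclear lamina and HMGB genes, used as senescence markers, 4 were lower (40%, against 5.23% of all genes) and 1 higher (10%, against 5.78%). HMGB1, HMGB3 and LMNB2 fell by 0.60 ± 0.08, 1.28 ± 0.21 and 0.72 ± 0.18. HMGA1 was higher by 0.31 ± 0.10 (not called with DESeq2, as LMNB2, nor in thinned cells, at 0.07). Among cells paired on total counts and cycle genes 0 of these 10 genes were lower (median 0.06). HMGB1, HMGB3 and LMNB2 then had log2 fold changes of -0.22, -0.80 and 0.09, none called. HMGA1 was the 1 called higher there (log2 0.57, edgeR adjusted p = 0.00860).

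Interferon-stimulated genes had unlike medians in the 2 libraries, a difference that was not tested. Of 25 tested 5 were higher (20%, against 5.78% of all genes) and none was lower. The list median was 1.11 in experiment 1 and 0.30 in experiment 2. ISG15, a ubiquitin-like modifier, had 41.0 and 14.2 CPM in high cells, against 4.86 and 6.29 CPM in low cells (log2 2.20 ± 0.45), but 40.9% of its counts in high cells of experiment 1 came from 1 cell. DDX60 had 54.9 and 14.2 CPM in high cells, against 8.74 and 8.98 CPM in low cells (log2 1.84 ± 0.39), IFI44 36.3 and 13.3 CPM, against 0.971 and 5.39 CPM (log2 2.84 ± 0.59), and the peptide transporter gene TAP1 45.6 and 25.8 CPM, against 16.5 and 12.6 CPM (log2 1.24 ± 0.31). Taken singly, experiments 1 and 2 gave IFI44 log2 fold changes of 4.25 and 1.15, and DDX60 2.48 and 0.59. The calls of ISG15, DDX60 and IFI44 were lost in thinned cells (adjusted p = 0.137, 0.186 and 0.119).

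The lists of this paragraph had medians from 0.02 to 0.19. Of 23 TGF-beta targets 3 were higher, ACTA2, BHLHE40 (0.80 ± 0.15) and COL5A1 (0.74 ± 0.16), and of 20 extracellular matrix genes 3 were higher, LUM (1.27 ± 0.23), NID1 (0.80 ± 0.24) and COL6A2 (0.58 ± 0.18). Of 23 cholesterol synthesis genes 4 were higher (17.4%) and 1 lower (4.35%, against 5.23% of all genes). STARD4 (0.82 ± 0.16), MSMO1 (0.54 ± 0.13) and HMGCS1 (0.45 ± 0.12) were among the higher ones. Of 35 cytosolic ribosomal protein genes 1 was higher (2.86%), RPS19 (0.39 ± 0.07), and of 9 histone genes 1 was higher (11.1%), HIST1H1C (0.57 ± 0.19). COL5A1, NID1, COL6A2, MSMO1, HMGCS1 and HIST1H1C were not called with DESeq2. In thinned cells NID1, MSMO1, HMGCS1 and HIST1H1C were not called either, with log2 fold changes of 0.35, 0.20, 0.30 and 0.04 (adjusted p = 0.530, 0.523, 0.156 and 0.964).

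Mitochondrially encoded genes were lower in high cells, 9 of 13 (69.2%, against 5.23% of all genes) with a median of -0.48. MT-CO3, MT-ND4 and MT-CYB, of the respiratory chain, fell by 0.69 ± 0.06, 0.79 ± 0.07 and 0.67 ± 0.06. After pairing on total counts they fell by 0.28, 0.31 and 0.27, with 5 of 13 called and a median of -0.14. In the cells with the most, MT-CO3 reached 110 and 125 counts among high cells and 121 and 114 among low cells. The largest value of any gene in a cell was 136 and 132 in the UT libraries. In thinned cells none of MT-CO3, MT-ND4 and MT-CYB was called. In unthinned cells, once genes with a mean of at least 20 counts per cell were left out, the list's remaining genes had a median of 0.20.

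The p53 targets climbed in steps with CDKN1A rather than at the threshold alone. In 5 bins of CDKN1A level (0, under 2.5, 2.5 to 5, 5 to 10 and at least 10 per 10000) MDM2 stood at 32.1, 58.2, 77.7, 120 and 262 CPM in experiment 1 and at 62.9, 68.7, 88.7, 203 and 401 CPM in experiment 2. The summed p53 targets without CDKN1A stood at 25.4, 28.5, 34.4, 45.6 and 60.7 per 10000 in experiment 1 and at 26.6, 28.1, 36.1, 50.3 and 66.6 in experiment 2. Both series rose at every step in both libraries, and each bin held between 20 and 170 cells. G2 and M phase genes stood at 102, 95.3, 76.9, 48.5 and 45.7 per 10000 in experiment 1 and at 108, 98.3, 85.5, 46.4 and 53.8 in experiment 2, with no further fall above 10 in experiment 2. S phase genes did not follow a single direction: the bins at 0 held 42.8 and 42.5 per 10000, those at 2.5 to 5 held 49.7 and 56.0, and those at 10 or more held 27.8 and 37.1.

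**Figure D4:**
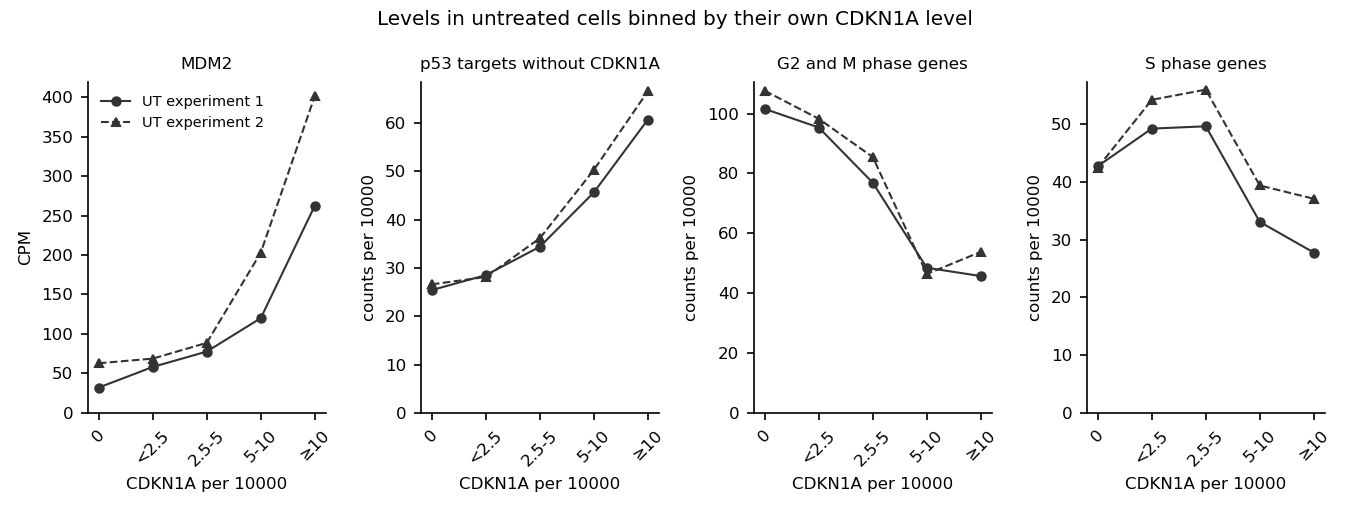
Levels in untreated cells grouped by their own CDKN1A counts per 10000, from 0 on the left to at least 10 on the right, as CPM of MDM2 and as counts per 10000 for the p53 target sum (without CDKN1A), G2 and M phase genes and S phase genes, with solid lines for experiment 1 and dashed lines for experiment 2. MDM2 and the p53 target sum rise at each step (to 262 and 401 CPM for MDM2), G2 and M phase genes drop by the bin of 5 to 10, and S phase genes peak in the bin of 2.5 to 5.

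Among the members the p53 target sum had a wide spread. Its quartiles were 39.9 and 59.4 per 10000 in high cells of experiment 1 and 41.6 and 63.4 in experiment 2, against 21.6 and 30.0 in low cells of experiment 1 and 22.2 and 28.5 in experiment 2. It exceeded the upper quartile of low cells in 61 of 66 and 58 of 59 high cells, and it was under the median of low cells in 1 and 0. After thinning to 8000 UMIs a high cell had counts of 21 p53 target genes in either library (medians), against 12 and 13 in low cells. A UMI of MDM2 was found in 56.7% and 84.5% of thinned high cells, against 15.9% and 30.9% of low cells, and a UMI of BTG2 in 41.7% and 51.7% of high cells, against 6.35% and 7.35% of low cells. Not every high cell therefore showed each target.

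With high and low cells paired on total counts (59 pairs in experiment 1 and 56 in experiment 2, at most 0.25 apart on the log2 scale) the classes differed in 681 genes higher (6.42% of 10612) and 660 lower (6.22%). Median totals were then 14616 and 17843 in high cells and 13971 and 16267 in low cells. Of the p53 targets 39 of 52 were higher (median 1.00), of the G2 and M phase genes 52 of 54 were lower (median -1.42), and of the S phase genes 21 of 41 were lower (median -0.57). MDM2 and GADD45A were higher by 2.28 and 1.69. NEK2 fell by 3.20 and PLK1 fell by 2.54. Pairing on mitochondrial share as well left 670 genes higher and 661 lower.

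After pairing on S phase and G2 and M phase sums in addition, few genes were called, and p53 targets were among them. It left 23 and 25 pairs, whose G2 and M phase medians were 55.1 and 47.6 per 10000 in high cells and 64.7 and 56.0 in low cells. Of 7722 genes 25 were higher (0.324%) and 10 lower (0.13%), with 700 at an unadjusted p under 0.05. p53 targets were 9 of the 25 (of 41 tested, median 0.77), against 1 lower of 53 G2 and M phase genes (median 0.10) and 0 of 41 S phase genes (median -0.03), the lists the pairing used. Of other lists, 0 of 13 mitochondrially encoded genes (median 0.02) and 0 of 10 interferon-stimulated genes (median 0.31) were called. Among secreted senescence genes 1 of 13 was called (median 0.28), and among immediate early genes 2 of 18 (median 0.39). The fit had fewer cells and so fewer counts than the comparison of all cells. With DESeq2 4 genes were higher and 1 lower, and without the block none was called.

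The 9 p53 targets called among these pairs covered feedback, arrest, metabolism and death. MDM2 had 121 and 197 CPM in high cells, against 26.1 and 71.4 CPM in low cells (log2 1.69, adjusted p = 8.24e-05). SESN2 was higher by 2.93, BTG2 by 2.38, RRM2B by 1.79, GADD45A by 1.30, PMAIP1 by 1.24, ZMAT3 by 1.04, TIGAR by 0.90 and RPS27L by 0.77. The most significant gene was FHL2, a LIM domain cofactor, at 255 and 343 CPM in high cells, against 113 and 71.4 CPM in low cells (log2 1.72, adjusted p = 3.43e-08). Among the 10 genes that were lower, CDC20, of the list the pairing used, fell by 0.96, E2F4 fell by 1.33 and SGK1, a kinase gene induced by glucocorticoids and stress, had 2.87 and 29.6 CPM in high cells, against 110 and 107 CPM in low cells (log2 -2.67, adjusted p = 1.30e-05).

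Irradiated and untreated cells over the same CDKN1A threshold were then compared, to see what IR cells held beyond a high CDKN1A level. In IR libraries 178 of 247 and 179 of 248 cells were high, with CDKN1A medians of 10.6 and 10.5 per 10000 against 9.29 and 7.99 in UT high cells, and median totals of 20496 and 22835 against 14938 and 17999. Without a block 3 of 13026 genes were higher in IR high cells (0.023%) and 0 lower (0%), with 1130 at an unadjusted p under 0.05, and DESeq2 called 20 higher and 28 lower. The experiment number in the titles pairs the libraries, and with it as a block 466 genes were higher (3.58%) and 378 lower (2.9%), on 1 residual degree of freedom. The 3 genes were MMP3, KRTAP2-3 and SUGCT.

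MMP3, the matrix metalloproteinase stromelysin, had 70.9 and 78.3 CPM in IR high cells, against 3.73 and 4.45 CPM in UT high cells (log2 4.10 ± 0.32, adjusted p = 0.00591). KRTAP2-3, a keratin-associated protein gene, had 285 and 212 CPM in IR high cells, against 30.7 and 16.01 CPM in UT high cells (log2 3.34 ± 0.31), and SUGCT 113 and 129 CPM, against 23.3 and 29.4 CPM (log2 2.13 ± 0.23). No class sums overlapped for these genes. KRTAP2-3 belongs to a multigene family in which reads shared between genes were not counted.

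p53 targets had a median log2 fold change of 0.24 between IR high and UT high cells, with 0 of 54 called without the block and 11 higher with it (20.4%, against 3.58% of all genes). The p53 target sum had a median of 65.4 and 68.9 per 10000 in IR high cells, against 48.2 and 50.8 in UT high cells. GDF15 had 172 and 199 CPM in IR high cells, against 23.3 and 60.5 CPM in UT high cells (log2 2.06 ± 0.34, adjusted p = 0.103, and called with the block). MDM2 had 264 and 342 CPM, against 180 and 272 CPM (log2 0.35 ± 0.24, adjusted p = 0.734, and 0.0542 with the block). GADD45A had 255 and 232 CPM, against 156 and 154 CPM (log2 0.58 ± 0.18, adjusted p = 0.420, but called with the block at 6.59e-04). Mitochondrially encoded genes had a median of -1.14, with 11 of 13 lower under the block, and G2 and M phase genes had a median of -0.04. The IR high class held far more cells than the UT high class, and the higher CDKN1A and total counts of its cells stand beside each of these values.

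**Figure D5:**
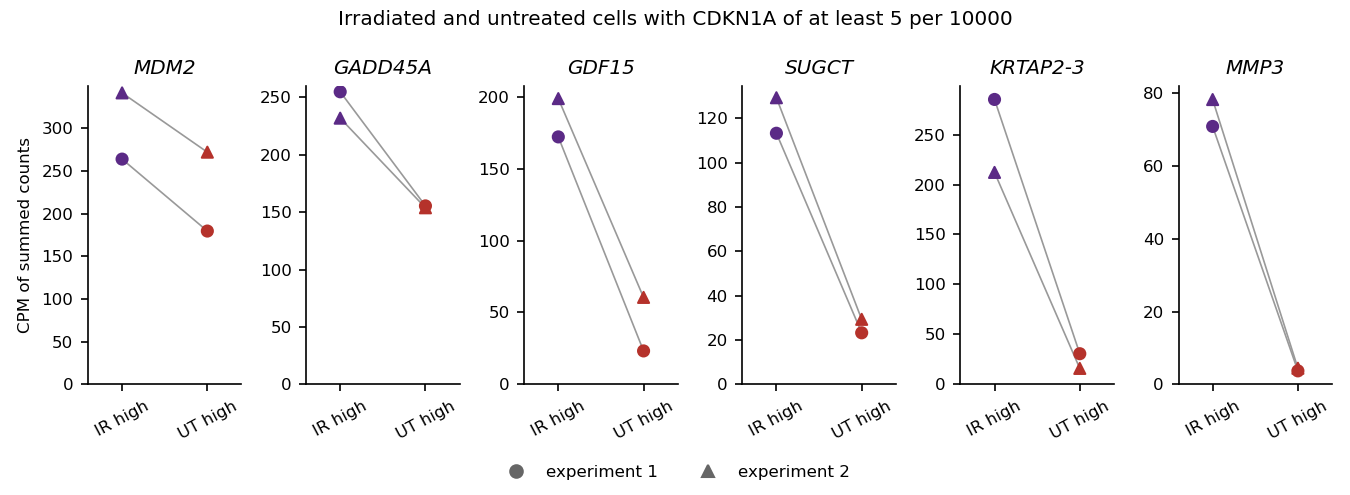
CPM in the sums over IR high and UT high cells, each with CDKN1A of at least 5 per 10000, for 6 genes, with lines joining libraries of 1 experiment (circles for experiment 1, triangles for experiment 2). MMP3, KRTAP2-3 and SUGCT lie apart between the groups (MMP3 at 70.9 and 78.3 CPM against 3.73 and 4.45 CPM), GDF15 is higher in both IR libraries, and the MDM2 values of the groups overlap.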

How the data were processed

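The deposited matrices hold expected counts: the authors mapped reads to GRCh38.p13 with STARsolo, leaving out intronic and multi-gene reads, and 100% of values fitted a UMI count corrected for 4096 possible UMIs. Strand assignment, UMI merging and barcode filters are not stated in the labels or methods. The design had assumed whole counts. Spike-ins were left out. No doublet caller was run, since cells were sorted singly. Groups came from sample titles.

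Values were summed per class and library, rounded, and tested with edgeR 4.0.16 in R 4.3.3 (filterByExpr, TMM, quasi-likelihood test, Benjamini-Hochberg adjusted p, 3 classes with the library as a block, 2 residual degrees of freedom). Cells were paired 1 to 1 within a library by total counts, and then by cycle sums. In counts simulated for all cells (10715 genes run) 73.7% of 2-fold and 92.9% of 4-fold changes were recovered, and 11 unchanged genes were called. For IR high against UT high cells (12758 genes run) 49% of 2-fold and 98% of 4-fold changes were recovered, and 5 unchanged genes were called. Each simulation gave every gene the same spread and changed only genes above a floor of expected counts. More variable or weaker genes are therefore not covered. Deviations from group means correlated at 0.423 between IR and UT high sums of an experiment and at 0.427 between the UT high and low sums of a library. Alternatives were DESeq2 1.42.0, RLE, no filter, no block, other thresholds, thinning and left-out libraries. Pairing on mitochondrial share and leaving out 2 outlying cells were chosen after seeing the data.

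Members and lists were chosen with earlier results of these data known. The named genes were CDKN1A, MDM2, GADD45A, the 10 strongest called changes each way (mean of at least 20 CPM, same sign in both libraries and in cells paired on total counts), up to 4 of each list by p, and the 5 strongest between IR and UT. FAS, BBC3, PMAIP1, TIGAR, RPS27L, EGR1, CTSD, MKI67, TOP2A, FHL2, SGK1, BAX, APAF1, FBXW7, GDF15 in IR cells and the genes of the closing section were chosen after their values were seen. Positions of 105 of 105 genes came from GENCODE on GRCh38.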

Additional observations from a re-analysis of the deposited data

How the results depend on the processing

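None of 101 named genes changed direction between high and low cells under the alternatives run for all cells. Without genes near the count ceiling 93 of them had a value. The strongest called changes had been chosen for the same sign in both libraries and in cells paired on total counts. For those genes, leaving out a library could not show a reversal. Other named genes were chosen by their p within a list or after their values were seen in this same comparison. The absence of reversals is therefore partly a result of the choice of genes. Among cells paired on cycle genes some named genes changed sign, such as DEPDC1 (-1.74 to 0.71) and CDKN2C (-0.46 to 0.85), neither called there. List medians near 0 also changed sign, such as the integrated stress response at 0.02 and -0.24 without replicate 2. Counts of called genes depended on the model. For all cells they were 633 higher and 572 lower in the fit as reported, 148 and 203 with DESeq2, 48 and 66 with no replicate block, 358 and 330 with high from 3 per 10000, 329 and 312 when thinned, and 870 lower with low under 1 per 10000. For cells paired on total counts DESeq2 gave 169 and 220, and no replicate block 66 and 82. For cells paired on cycle genes too, DESeq2 gave 4 and 1 and no replicate block 0 and 0.

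For IR high against UT high cells (3 and 0 as reported) DESeq2 gave 20 higher and 28 lower, no filter 154 and 68 (the median of all genes was then 0.14), the replicate block 466 and 378, and pairing on total counts 5 higher. Leaving out 1 library gave 5 to 66 higher and 4 to 55 lower. Of the 101 genes 62 lost their call with no block, 27 when thinned and 19 with DESeq2, which gave no adjusted p for 16. These 16 were not counted among the 19, so DESeq2 did not assess their calls. Leaving out a library in the high and low comparison gave values without a test. With 125 high cells, genes under about 20 CPM rest on a few counts.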

Other observations

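Outside the lists, several genes with a known link to p53 or to arrest were higher in high cells, all chosen after their values were seen. PURPL, a long non-coding RNA induced by p53, had 91.3 and 96.1 CPM in high cells, against 18.5 and 26.9 CPM in low cells (log2 1.99 ± 0.23, edgeR adjusted p = 1.76e-09). CYFIP2, a cytoplasmic actin regulator that p53 induces, had 98.7 and 78.3 CPM in high cells, against 18.5 and 23.3 CPM in low cells (log2 2.02 ± 0.23). NEAT1, the RNA of paraspeckles, had 2420 and 2473 CPM in high cells, against 862 and 1020 CPM in low cells (log2 1.34 ± 0.07). FST, the activin antagonist follistatin, and GPNMB, a lysosomal glycoprotein gene, were higher by 2.22 ± 0.23 and 1.32 ± 0.16. Among cells also paired on cycle genes NEAT1 was still called (log2 0.45, adjusted p = 0.00122), while PURPL, CYFIP2, FST and GPNMB were not (adjusted p from 0.25 to 0.929).

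Of 3 heat shock genes chosen after their values were seen, each was lower in high cells. HSPA8 had 852 and 665 CPM in high cells, against 1305 and 955 CPM in low cells (log2 -0.61 ± 0.08), and HSPE1 and HSPA1A fell by 0.46 ± 0.09 and 1.06 ± 0.17. HSPA8 and HSPE1 were also lower among cells paired on cycle genes (-0.47 and -0.57).

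Single cells stood apart at both ends. The high cell with the most CDKN1A, in experiment 1, had 112 per 10000, and the next cell had 30.6. Its total was 6460 counts, 15.3% of them mitochondrial, and its p53 target sum was 217 per 10000. A low cell of experiment 2 had no CDKN1A count among 13471 counts but a p53 target sum of 99.5 per 10000, where the next low cell had 40.2, with 13 counts of MDM2, 13 of GDF15, 9.01 of ZMAT3 and 10 of RPS27L. Without these 2 cells 661 genes were higher and 584 lower.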
